A study of Mus musculus with 24 samples.

Results

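BV2 cells treated with transforming growth factor-β (TGF-β) were compared with BV2 cells treated with interleukin-10 (IL-10). The libraries compared were the 3 of TGF-β cells and the 3 of IL-10 cells, 6 of the 24 libraries of the series, chosen by the treatment and compartment that each column of the deposited counts names. BV2 is an immortalised line of mouse microglia, the resident macrophages of the brain, and a single line grown without neurons or astrocytes. Both cytokines were given at 50 ng/mL for 72 h. For reference there were 3 libraries of untreated BV2 cells and 3 of BV2 cells given lipopolysaccharide (LPS, 100 ng/mL, 72 h), and the other 12 libraries came from extracellular vesicles (EVs) of the same 4 treatments. The labels name no allele or transgene and do not say whether the libraries of a group are separate cultures, and the spread that p-values measure may then be technical. Libraries are numbered as their columns are.

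TGF-β binds a pair of receptor serine kinases, which phosphorylate SMAD2 and SMAD3. These join SMAD4 in the nucleus and induce, among other genes, the inhibitors that end the signal. In the brain this pathway is known for holding microglia in their homeostatic state. IL-10 binds a receptor that uses the kinases JAK1 and TYK2 and activates STAT3, which induces SOCS3 and restrains the inflammatory output of macrophages. Both cytokines are called anti-inflammatory, and the direct comparison asks where the RNA they leave in the same cells differs.

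Cell libraries held 26136825 to 42125153 counts, those of IL-10 cells 34779403 to 36317116 and those of TGF-β cells 26136825 to 34630767. A count of 0 allowed up to 0.0826 to 0.115 CPM (counts per 1e6 counts of the library) in these 6 libraries, at 3 counts per library and for counting error alone. Across genes, which are not independent replicates, Pearson's r of log2 levels was 0.995 among IL-10 libraries, 0.992 to 0.993 among TGF-β libraries and 0.966 to 0.976 between the groups. Of 20 microglia and macrophage markers 19 were listed, and only Cx3cr1 was at 0 in the IL-10 libraries. Their summed level was 13460 to 14300 CPM of library totals with TGF-β and 10620 to 10700 with IL-10. Of the 15 neuron, 10 astrocyte, 11 oligodendrocyte, 17 lymphocyte, 13 granulocyte and 14 stromal and endothelial markers, 7, 6, 3, 4, 6 and 7 were listed. Rbfox3, Gja1, Camp, Kit, Col3a1 and Pdgfrb were at 0 in all 6 libraries. With TGF-β and with IL-10, the summed levels of these lists were 45.7 to 49.4 and 73.0 to 78.8 CPM for neurons, 450.5 to 483 and 299.9 to 329.8 for astrocytes, 49.3 to 52.5 and 35.0 to 36.5 for oligodendrocytes, 0.672 to 1.18 and 1.15 to 2.37 for lymphocytes, 84.3 to 114 and 17.1 to 18.1 for granulocytes and 941 to 1020 and 157 to 180 for stromal and endothelial cells. They came mostly from Syn1, Nefh and Eno2, from Aldoc and Glul, from Cnp, from Cxcr2, and from Flt1 and Vwf, and their part in the results was not tested.

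Levels below are CPM scaled by TMM, a normalisation that centres the bulk of genes between libraries, as mean ± SD of n = 3 libraries or as the values of libraries 1, 2 and 3. A gene was called at an adjusted p under 0.05 in edgeR's quasi-likelihood test, adjusted by Benjamini-Hochberg over the 12148 genes tested. Of these 4649 were called (38.3%), 2223 of them higher with TGF-β (18.3%) and 2426 higher with IL-10 (20.0%). Over 2-fold there were 1142 (9.40%), of which 492 were higher with TGF-β (4.05%) and 650 with IL-10 (5.35%). Over 16-fold, 36 and 60 were, or 27 and 47 when genes without a count in 1 group are set to the fold that 3 counts per library would give. The 3 and 3 libraries did not overlap in 5579 genes (45.9%). With scaling by library size in place of TMM, the median log2 fold change of all tested genes moved towards TGF-β by 0.149, from 0.006 to 0.155. The calls then split into 3499 higher with TGF-β and 1657 higher with IL-10, 67.9% on the TGF-β side in place of 47.8%. Changes are therefore relative to the centre of all genes, and in bulk RNA more expressing cells and more RNA per cell cannot be told apart. In vesicles the same contrast called 0 of 12701 genes by edgeR, with 790 at an unadjusted p under 0.05 (6.22%), 273 called by DESeq2 and 17 by limma-voom. The difference of the contrast between cells and vesicles was called for 9 of 13281 genes (0.0678%).

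**Figure D1:**
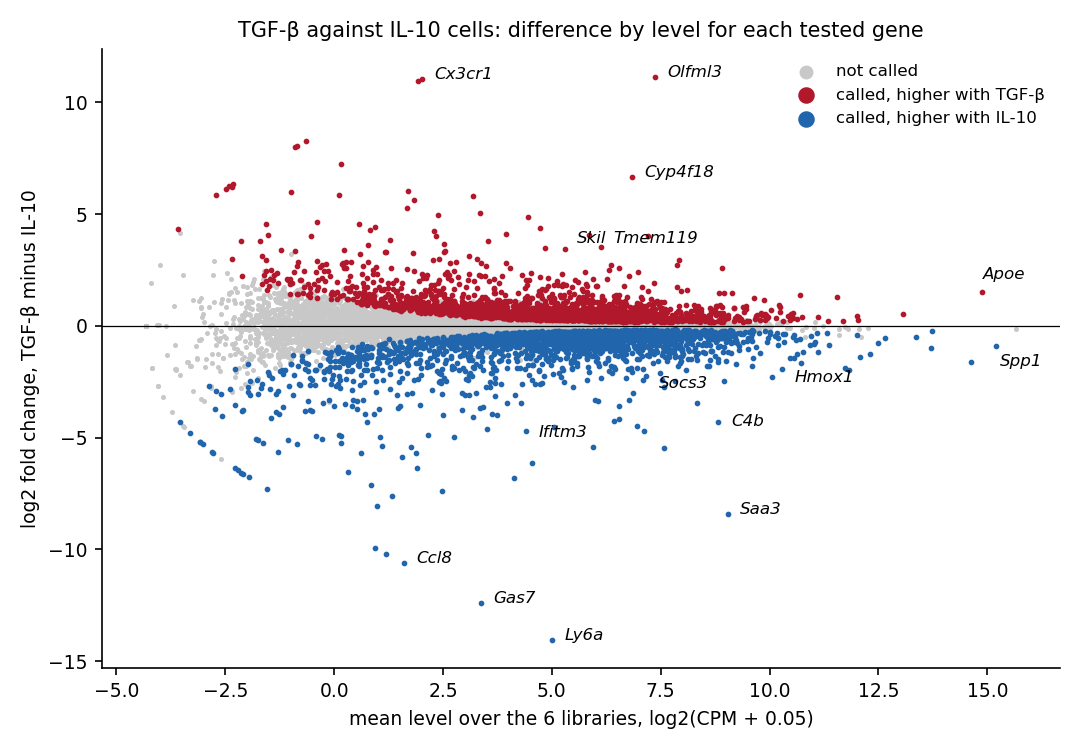
Each point is 1 of the 12148 tested genes, with its mean level over the 6 libraries on the x axis as log2(CPM + 0.05) and the fitted log2 fold change, TGF-β minus IL-10, on the y axis. Red and blue points passed an adjusted p of 0.05, and the labelled genes are described in the text, from Olfml3 at 11.12 to Ly6a at -14.04.

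Socs3, the inhibitor of cytokine receptors that STAT3 induces, separated the groups with no overlap. Its level was 227, 252 and 232 CPM in the IL-10 libraries, 54.3, 54.5 and 43.5 in the TGF-β libraries and 20.6, 26.4 and 25.9 in untreated cells. All IL-10 libraries lay above all TGF-β libraries, which themselves lay above untreated cells. The difference between the cytokines was 4.67-fold (log2 fold change -2.22, SE 0.11, edgeR adjusted p = 7.66e-12). Against untreated cells, a group that both contrasts share, the log2 fold change was 3.28 with IL-10 (edgeR adjusted p = 5.51e-13) and 1.06 with TGF-β (edgeR adjusted p = 4.17e-07).

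The promoter of Socs3 is shown because it carries the palindrome that STAT proteins bind, and that of Id3 because it carries copies of the short element that SMAD proteins bind. The promoters are RefSeq's, on GRCm38.p6, from 250 bases before to 50 after the start of the gene and read in the direction of the gene. Capitals mark matches to TTCNNNGAA (its own reverse complement), CAGAC and a pair of GAAA with any 2 bases between them, on either strand.
Socs3, chr11:117969317-117969616, minus strand: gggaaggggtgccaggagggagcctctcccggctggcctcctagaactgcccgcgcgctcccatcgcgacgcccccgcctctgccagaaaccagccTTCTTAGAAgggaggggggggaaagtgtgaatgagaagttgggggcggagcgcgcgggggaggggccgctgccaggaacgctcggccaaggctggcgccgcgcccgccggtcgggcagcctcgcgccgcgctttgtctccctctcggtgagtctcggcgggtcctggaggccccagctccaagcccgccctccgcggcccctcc
Id3, chr4:136143572-136143871, plus strand: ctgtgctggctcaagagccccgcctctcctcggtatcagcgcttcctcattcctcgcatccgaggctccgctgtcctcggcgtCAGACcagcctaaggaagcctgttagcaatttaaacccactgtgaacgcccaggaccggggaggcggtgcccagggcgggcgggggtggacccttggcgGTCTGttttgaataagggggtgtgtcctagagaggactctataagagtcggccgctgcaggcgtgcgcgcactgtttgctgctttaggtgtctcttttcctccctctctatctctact
The single match in Socs3 begins at position -154, and those in Id3 begin at -167 and -68, the second on the opposite strand, with the start of the gene as position 1. TTCNNNGAA occurred in 8.3% of 32851 promoters of the same length, in 8.16% of those of tested genes, in 9.63% of those of genes over 2-fold higher with IL-10 and in 7.12% of those over 2-fold higher with TGF-β. Among the lists it occurred in 7 of the 36 promoters found for the IL-10 and STAT3 targets (19.4%), in 13.6% for the TGF-β feedback and target genes and in 13.3% for the homeostatic microglia genes. CAGAC is short and occurred in 49.6% of all promoters and in 52.2% of those of tested genes, in 61.9% for genes over 2-fold higher with TGF-β and in 52.3% for those over 2-fold higher with IL-10. In the same 3 lists its shares were 50.0%, 50.0% and 73.3%. A match describes these letters in this window only.

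Receptors and kinases of the IL-10 pathway were mixed. In a list of 28 tested receptor, JAK, STAT and SOCS genes 8 were called higher with IL-10 and 5 with TGF-β (28.6% and 17.9%, against 20.0% and 18.3% over all genes), and the median log2 fold change was 0.00 against 0.006 over all tested genes. The members called higher with IL-10 included Stat3 itself at 373 ± 10.6 against 182 ± 9.06 CPM (2.04-fold; edgeR adjusted p = 3.35e-10), Jak1 (1.71-fold) and Stat2 (1.84-fold). The IL-10 receptor chain Il10ra was 1.37-fold higher with TGF-β, at 90.1, 78.9 and 97.2 CPM against 61.4, 68.4 and 64.8 with IL-10, and both groups lay below untreated cells at 127, 131 and 124. The other 4 on the TGF-β side were the phosphatase gene Ptpn6 (log2 fold change 0.62), the cytokine signal inhibitors Socs2 (1.65) and Socs1 (1.47), and Pias2 (0.41), a SUMO ligase. The call of Socs1 was lost without IL-10 library 2 (1.27), with 6 or 9 libraries and in limma-voom. Here and below, members named because a count was 5 or fewer were chosen after their values were seen.

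Of 36 tested IL-10 and STAT3 target genes, 27 were called higher with IL-10 and 3 with TGF-β (75.0% and 8.33%), and the list's median log2 fold change was -0.92. Against untreated cells, which both contrasts share, 22 of the 36 were called higher and 3 lower with IL-10. With TGF-β 8 were called higher and 16 lower. Over all tested genes these shares were 9.80% and 8.51% with IL-10 and 15.0% and 16.5% with TGF-β. Bcl3, a nuclear IκB protein that limits NF-κB transcription, was at 26.5, 30.3 and 29.3 CPM with IL-10 and 2.63, 2.38 and 2.88 with TGF-β. The groups were far apart, and the TGF-β libraries lay just under untreated cells at 3.29, 3.21 and 4.41 (10.8-fold between the cytokines; log2 fold change -3.44, SE 0.16, edgeR adjusted p = 2.23e-12). Sbno2, a transcriptional corepressor downstream of IL-10, was 3.13-fold higher with IL-10 (edgeR adjusted p = 1.41e-12), and Hmox1, which degrades haem, 3.85-fold (edgeR adjusted p = 1.45e-13). Hmox1 was at 1972 ± 124 CPM with IL-10, 733 ± 27.4 in untreated cells and 512 ± 18.5 with TGF-β. The scavenger receptors Msr1 and Marco were 22.6-fold and 8.23-fold higher with IL-10. Msr1 was at 63.2 ± 1.17 CPM with IL-10, 7.30 ± 0.716 untreated and 2.75 ± 0.876 with TGF-β. For Marco these levels were 9.77 ± 0.466, 7.27 ± 1.14 and 1.19 ± 0.161 CPM, so IL-10 was nearer to untreated cells than TGF-β was. Saa3, an acute-phase protein, had the largest difference of the list, with 869, 988 and 1290 CPM against 2.91, 3.10 and 3.11 (345-fold; log2 fold change -8.43, SE 0.16, edgeR adjusted p = 9.69e-16). Untreated cells held 7.75, 6.66 and 6.82 CPM, above every TGF-β library. The 3 members called higher with TGF-β were Il10ra, the IL-6 receptor Il6ra (2.71-fold) and Fos (1.63-fold). Arg1, which encodes arginase and was chosen after its values were seen, was 4.29-fold higher with IL-10, at 308, 187 and 369 CPM against 77.2, 49.6 and 74.3 and 228, 343 and 234 untreated.

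Several genes were close to silent in one arm. Ly6a, a GPI-anchored surface protein also called Sca-1, had 72.7, 67.0 and 53.8 CPM with IL-10 and no count in any TGF-β library, at least 667-fold (edgeR adjusted p = 1.51e-13). Gas7, a cytoskeletal adaptor, was at least 212-fold higher with IL-10, at 24.9, 18.2 and 18.4 CPM. Ly6a and Gas7 differ in their reference level, since untreated cells held 0.0731, 0.214 and 0.234 CPM of Ly6a and 20.4, 19.3 and 19.2 CPM of Gas7. Without a count in TGF-β cells were also the chemokine Ccl8 (at least 61.8-fold), the water channel Aqp8 (at least 46.1-fold) and Nxpe5 (at least 38.4-fold). Of those with counts in every TGF-β library, the Src-family kinase Fgr was 111-fold and Cd5l, a secreted scavenger protein of macrophages, 71.2-fold higher with IL-10. Wfdc17, a secreted protein with a whey acidic domain, reached 295, 397 and 432 CPM with IL-10 against 8.39, 9.43 and 7.49 with TGF-β and 42.0, 36.3 and 35.9 untreated. A4galt, which makes the glycolipid Gb3, was at 11.1 ± 0.873 against 0.0612 ± 0.106 CPM (log2 fold change -7.37). All 6 A4galt counts of the TGF-β group lay in library 1. Leaving that library out gave -11.50, and leaving out TGF-β library 3 gave -6.72.

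**Figure D2:**
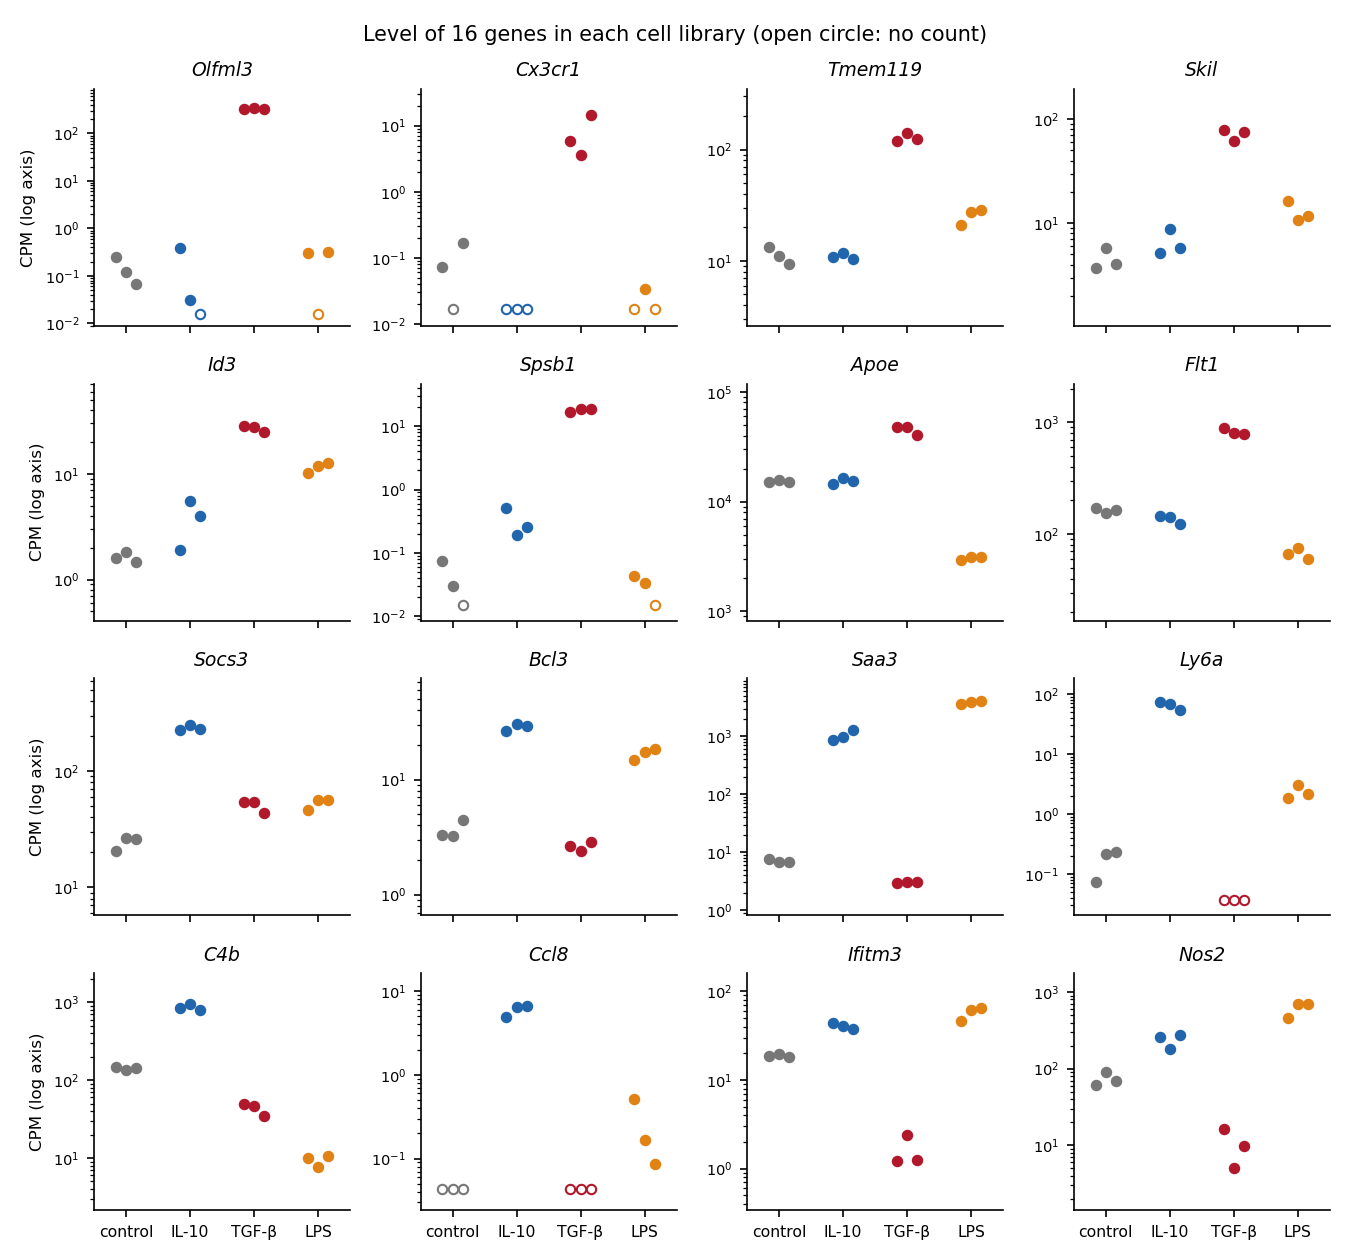
Level of 16 genes in each of the 12 cell libraries, in CPM on a log axis, with 3 points per group for untreated (grey), IL-10 (blue), TGF-β (red) and LPS (orange) cells. Open circles are libraries without a count, drawn below the lowest point, and all IL-10 points of Ly6a stand at 53.8 CPM or more while all 3 TGF-β points are open.

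Ligands, receptors and SMADs of the TGF-β family were called in both directions. In this list 3 of 22 tested members were called higher with TGF-β and 5 with IL-10 (13.6% and 22.7%), and the median of -0.09 changed sign to 0.06 with library size scaling. The type I receptor Tgfbr1 was at 72.2, 66.2 and 89.5 CPM with TGF-β, 29.8, 31.8 and 34.0 with IL-10 and 32.9, 33.9 and 38.1 untreated (2.38-fold between the cytokines; edgeR adjusted p = 1.79e-07). The TGF-β libraries lay above all others. Also higher with TGF-β were Smad5 (log2 fold change 0.75), a SMAD of the BMP branch, and the BMP receptor Bmpr2 (0.72). Higher with IL-10 were Nrros (-0.45), which anchors latent TGF-β on microglia, the protease Furin (-0.81), which cleaves pro-TGF-β, the BMP receptor Bmpr1a (-0.75), the type II receptor Tgfbr2 (-0.35) and the latency protein Ltbp3 (-2.17). The call of Ltbp3 was lost without IL-10 library 2 (-1.59) or TGF-β library 1 (-1.76), and that of Tgfbr2 with library size scaling (-0.20).

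Among 23 tested feedback and target genes of TGF-β, 12 were called higher with TGF-β and 7 with IL-10 (52.2% and 30.4%; median log2 fold change 0.75). Skil, which encodes the SMAD repressor SnoN, was at 78.0, 61.6 and 75.4 CPM with TGF-β, 5.17, 8.72 and 5.83 with IL-10 and 3.69, 5.80 and 4.04 untreated. Only the TGF-β libraries stood apart (10.9-fold between the cytokines; log2 fold change 3.45, SE 0.22, edgeR adjusted p = 1.24e-08). Ski, a related repressor, was 4.17-fold higher with TGF-β and the inhibitory Smad6 7.33-fold (edgeR adjusted p = 4.16e-07). The other inhibitory SMAD, Smad7, had 13.1, 4.14 and 5.44 CPM with TGF-β and 1.75, 2.09 and 2.54 with IL-10, and its log2 fold change of 1.83 became 1.18 without TGF-β library 1. Id3, an inhibitor of helix-loop-helix factors, was at 28.5, 28.0 and 24.7 CPM with TGF-β, 1.90, 5.58 and 4.00 with IL-10 and 1.61, 1.83 and 1.47 untreated (7.09-fold; edgeR adjusted p = 2.21e-07). Spsb1, an adaptor of ubiquitin ligases, was 55.4-fold higher with TGF-β (log2 fold change 5.79, SE 0.33, edgeR adjusted p = 3.95e-11), and the integrin subunit Itgav, which takes part in releasing latent TGF-β, 3.77-fold. The cell cycle inhibitor Cdkn1a, a textbook TGF-β target in epithelia, went the other way, at 137 ± 11.5 CPM with TGF-β against 287 ± 18.6 with IL-10 and 249.9 ± 11.1 untreated (edgeR adjusted p = 1.89e-09).

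Of the 28 lists, the homeostatic microglia genes had the largest share called higher with TGF-β. Of 30 tested, 22 were called higher with TGF-β and 5 with IL-10 (73.3% and 16.7%), with a median log2 fold change of 0.93. Olfml3, a secreted olfactomedin-like protein, was at 327, 343 and 321 CPM with TGF-β and 0.387, 0.0317 and 0 with IL-10. The groups lay far apart, and IL-10 cells were at the level of untreated cells (0.256, 0.122 and 0.0669). The log2 fold change was 11.12 (SE 0.44, edgeR adjusted p = 2.86e-08). It was 14.03 leaving out IL-10 library 1, which held 13 of the 14 IL-10 counts. Tmem119, a surface marker of microglia, was at 119, 139.8 and 124 CPM with TGF-β, 10.9, 11.8 and 10.4 with IL-10 and 13.3, 11.0 and 9.36 untreated. IL-10 and untreated libraries overlapped, and the TGF-β libraries were 11.6-fold above IL-10 (log2 fold change 3.53, SE 0.14, edgeR adjusted p = 2.79e-13). Cx3cr1, the fractalkine receptor, had 5.88, 3.60 and 14.3 CPM with TGF-β and no count with IL-10, at least 85.2-fold and at least 50.9-fold without TGF-β library 3. The protease inhibitor Cst3 was 2.61-fold higher with TGF-β and Csf1r, the receptor microglia need to survive, 2.26-fold. Csf1r lay on both sides of untreated cells (822 ± 27.2 CPM), at 1292 ± 33.2 with TGF-β and 572 ± 24.8 with IL-10. Among those called higher with IL-10 were Jun (log2 fold change -0.75), Gas6 (-0.43), Tgfbr2 (-0.35) and Bhlhe41 (-0.50). With library size scaling 3 were, and Bhlhe41 was not called without IL-10 library 3 (-0.42) or TGF-β library 3 (-0.32). P2ry12 was not among the listed genes.

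Other genes with large differences towards TGF-β encode an enzyme, a scaffold, an adhesion molecule and a receptor. Cyp4f18, a cytochrome P450 that hydroxylates leukotriene B4, was at 223, 244 and 215 CPM with TGF-β, 2.44, 2.54 and 1.65 with IL-10 and 12.5, 15.4 and 15.5 untreated. The 3 groups were fully separated, with untreated cells between the cytokines (102-fold; log2 fold change 6.68, SE 0.20, edgeR adjusted p = 2.28e-12). Ush1g, a scaffold protein known from sensory hair cells, was at 8.67, 9.54 and 4.36 CPM with TGF-β and had no count in any IL-10 or untreated library (at least 80.7-fold). The adhesion molecule Mcam was 33.5-fold and the apolipoprotein Apoc4 28.9-fold higher with TGF-β. Flt1, a VEGF receptor better known from endothelium, was at 887, 798 and 785 CPM with TGF-β against 144, 142 and 123 with IL-10 and 171, 155 and 163 untreated (6.03-fold; edgeR adjusted p = 3.91e-14). The other listed endothelial and stromal markers except Vwf stayed at or under 0.496 CPM of library totals in all 6 libraries. Vwf was 2.59-fold higher with TGF-β than with IL-10, at 133 ± 13.3 and 51.5 ± 3.18 CPM, and untreated cells held 132 ± 10.5. Syn1, a synapsin, fell from 28.2 ± 1.10 CPM untreated to 1.47 ± 0.428 with TGF-β (edgeR adjusted p = 2.26e-12) and was 23.0 ± 1.43 with IL-10. Other neuron markers differed in level. Rbfox3, Snap25 and Syt1 were at or under 0.0289 CPM of library totals in the 6 libraries of treated cells. Nefh was at 17.8 to 19.7 CPM of library totals with TGF-β and 14.1 to 21.5 with IL-10. For Eno2 these levels were 25.3 to 30.2 and 35.9 to 39.2.

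Interferon-induced genes had the largest share called higher with IL-10 of the 28 lists. Of 64 tested members of the type I interferon list 50 were called higher with IL-10 and 1 with TGF-β (78.1% and 1.56%). The median log2 fold change was -1.41, or -1.34 with members without a count in 1 group at their bound. Their summed level was 2995 to 3397 CPM of library totals with IL-10, 1656 to 1836 with TGF-β and 2550 to 2737 untreated, so the 3 groups did not overlap. Against untreated cells 39 of the 64 were called lower and 4 higher with TGF-β, where 16.5% and 15.0% of all tested genes were. With IL-10 25 were called higher and 0 lower, where 9.80% and 8.51% of all were, and both contrasts use the same untreated libraries. Ifitm3, a membrane protein that blocks virus entry, was at 44.3, 40.4 and 37.5 CPM with IL-10, 1.23, 2.38 and 1.25 with TGF-β and 18.8, 19.8 and 17.9 untreated (25.8-fold; log2 fold change -4.69, SE 0.20, edgeR adjusted p = 2.34e-12). No libraries of different groups overlapped in it. Oasl1, a member of the oligoadenylate synthetase family, was 5.79-fold, Slfn2, a schlafen, 4.31-fold and Ifi207, of the HIN-200 family, 2.86-fold higher with IL-10. The member higher with TGF-β, Slfn9, was at 19.9 ± 5.32 against 14.3 ± 1.56 CPM (log2 fold change 0.48, edgeR adjusted p = 0.0216). Leaving out IL-10 library 2 (0.40) or TGF-β library 3 (0.25), or fitting the 6 libraries alone, left 0 members called on that side, and 6 other alternatives, among them leaving out IL-10 library 1 or TGF-β library 2, gave 2. Members of the Ifi200, schlafen, Gbp, Ly6, paired receptor, C4 and MHC families resemble each other closely, so reads can be shared between copies and single members are uncertain.

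The paired GAAA, the core of the interferon-stimulated response element, occurred in 30 of the 56 promoters found for the interferon list (53.6%), against 3.44% of all promoters of this length and 10.5% and 3.29% of those of genes over 2-fold higher with IL-10 and with TGF-β. The promoter of Ifitm3 is printed because it holds 2 such pairs, and it was chosen after its values were seen.
Ifitm3, chr7:141010695-141010994, minus strand: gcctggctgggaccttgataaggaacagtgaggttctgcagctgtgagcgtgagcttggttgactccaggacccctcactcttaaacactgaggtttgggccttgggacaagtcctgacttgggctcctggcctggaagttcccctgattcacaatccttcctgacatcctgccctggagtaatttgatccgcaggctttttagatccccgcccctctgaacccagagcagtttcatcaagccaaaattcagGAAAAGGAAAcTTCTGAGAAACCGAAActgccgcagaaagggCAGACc
The matches to the paired GAAA begin at positions 3 and 20, the second one overlapping a match to TTCNNNGAA that begins at 14, and a CAGAC begins at 45.

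The interferon-inducible GTPases gave 6 of 11 tested members higher with IL-10 and 0 with TGF-β (54.5% and 0.00%), but 3 and 0 when the fit held 6 or 9 of the cell libraries. Irgm1 was 1.75-fold higher with IL-10, at 56.5, 48.7 and 45.8 against 28.8, 27.4 and 30.4 CPM, and the guanylate-binding protein Gbp7 was at 4.08 ± 1.30 against 0.0877 ± 0.0923 CPM (log2 fold change -5.38, and -6.75 without TGF-β library 3). Of 24 tested genes of MHC class I presentation 18 were higher with IL-10 and 3 with TGF-β (75.0% and 12.5%; median -0.61). The classical molecules H2-K1 and H2-D1 were 2.74-fold and 2.36-fold higher with IL-10, and the nonclassical H2-T23 3.47-fold. H2-K1 was at 1905, 2153 and 2154 CPM with IL-10, 805, 799 and 661 with TGF-β and 1117, 1138 and 1126 untreated, so the cytokines lay on opposite sides of untreated cells. The 3 on the TGF-β side were chaperones of the endoplasmic reticulum, Pdia3 (log2 fold change 0.69), Calr (0.55) and Canx (0.56). MHC class II genes were split, 4 higher with TGF-β and 3 with IL-10 of 11 tested (36.4% and 27.3%). Cd74, the invariant chain, was 5.42-fold lower with TGF-β, at 42.8, 47.9 and 36.2 CPM against 233, 224 and 230.2 with IL-10 and 228, 252 and 237 untreated. Rfxank (-0.71) and Ctsl (-0.33) were the other members higher with IL-10, and H2-DMa (1.58), H2-DMb2, H2-Oa (0.77) and Ctss (0.21) those higher with TGF-β. H2-DMb2 was at 1.37 ± 0.523 against 0.0496 ± 0.0859 CPM (log2 fold change 4.63, and 8.48 without IL-10 library 1).

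Complement genes were called in both directions, C1qa and C1qc towards TGF-β and C4b, C3 and Cfp towards IL-10. Of 18 tested genes 8 were called higher with IL-10 and 5 with TGF-β (44.4% and 27.8%; median -0.27, or -0.15 with bounds). With library size scaling 6 were called higher with IL-10 and 6 with TGF-β. C4b was at 837, 948 and 807 CPM with IL-10, 49.4, 47.2 and 34.2 with TGF-β and 147, 136 and 143 untreated (19.8-fold; log2 fold change -4.31, SE 0.14, edgeR adjusted p = 4.73e-12). Cfp, properdin, which stabilises the alternative pathway convertase, was 19.0-fold lower with TGF-β, and here the IL-10 libraries (182, 165 and 144 CPM) overlapped untreated cells (174, 185 and 176). C1qc was at 335, 339.5 and 391 CPM with TGF-β and 247, 224 and 207 with IL-10, both above untreated cells at 15.8, 20.7 and 18.7, and the 1.57-fold difference between them was called (edgeR adjusted p = 3.85e-05). C3, chosen after its values were seen, was 2.40-fold higher with IL-10. C1qb, at 699, 734 and 869 and 692, 609 and 606 CPM, was not called by edgeR (log2 fold change 0.27, adjusted p = 0.0623), although the groups did not overlap and 7 alternatives called it, 2 of which left out a library (0.34 leaving out IL-10 library 1 and 0.35 leaving out TGF-β library 1). C1qa was 3.09-fold and the receptor C5ar2 5.36-fold higher with TGF-β. The level of C1qa was 19.05 ± 9.61 against 6.16 ± 1.41 CPM, and its log2 fold change of 1.63 became 1.13 without TGF-β library 3. Calr and the complement receptor chain Itgax (log2 fold change 0.27) completed that side, and Itgax was not called without TGF-β library 1 (0.24) or 2 (0.20).

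**Figure D3:**
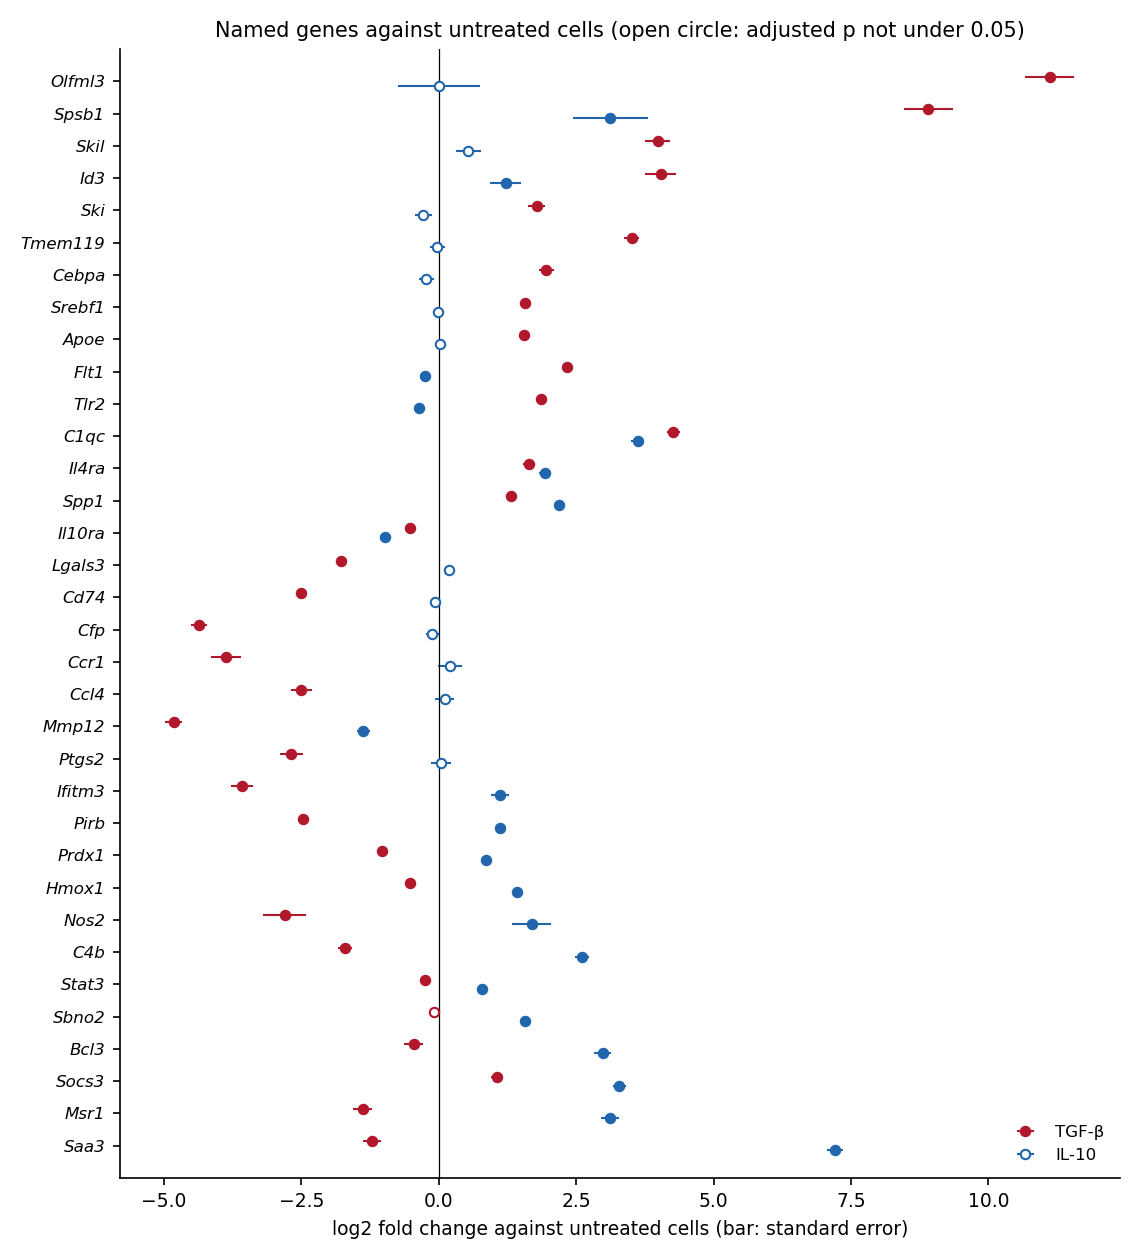
Fitted log2 fold change of 34 named genes against untreated cells for TGF-β (red) and IL-10 (blue), with the standard error as a bar and open circles where the adjusted p was not under 0.05. Both contrasts share the 3 untreated libraries, and Saa3 stands at 7.21 with IL-10 and -1.22 with TGF-β.

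Chemokines were mostly higher with IL-10, 10 of 16 tested members against 1 (62.5% and 6.25%), with a median log2 fold change of -2.12. Ccl3 and Ccl4, which attract monocytes and other leukocytes, were 4.14-fold and 6.09-fold higher with IL-10. Ccl4 was at 47.4, 48.0 and 41.6 CPM with IL-10, 7.04, 9.70 and 5.96 with TGF-β and 49.6, 34.9 and 42.9 untreated, so that IL-10 overlapped untreated cells and TGF-β lay below both. Ccl5 was 11.5-fold higher with IL-10, at 7.18 ± 1.00 against 0.622 ± 0.0182 CPM (edgeR adjusted p = 1.21e-06). Cxcl14, the member higher with TGF-β, was at 5.18, 5.98 and 7.79 CPM against 0.0595, 0.0317 and 0.190 (log2 fold change 6.03, and 7.00 without IL-10 library 3), while 2 were on that side with library size scaling or leaving out IL-10 library 1. Of 18 tested chemotactic receptors 7 were higher with TGF-β and 5 with IL-10 (38.9% and 27.8%). Cxcr2, a receptor for CXC chemokines better known from neutrophils, was 5.25-fold higher with TGF-β, at 89.7, 80.4 and 102 CPM against 17.0, 16.3 and 18.6. P2ry6, a receptor for UDP in microglial phagocytosis that was chosen after its values were seen, was 4.82-fold higher with TGF-β. Other granulocyte genes were low, S100a8 at 4.58 ± 1.90 and 1.19 ± 0.262 CPM and Camp at 0. Ccr1, a receptor of Ccl3, was 16.9-fold higher with IL-10. Ltb4r1, the leukotriene B4 receptor, was at 7.28 ± 1.70 against 0.0894 ± 0.0797 CPM (log2 fold change -6.36, or -7.10 and -5.70 leaving out TGF-β library 1 or 3). C5ar1 (-0.73) and Ptafr (-1.15) were also higher with IL-10.

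Inflammatory cytokines and enzymes gave 12 of 23 members higher with IL-10 and 4 with TGF-β (52.2% and 17.4%), and the NF-κB response list 24 and 10 of 47 (51.1% and 21.3%). Nos2, the inducible nitric oxide synthase, was at 260, 179 and 276 CPM with IL-10, 16.3, 5.13 and 9.93 with TGF-β and 62.1, 90.3 and 69.3 untreated, 3 levels without overlap (22.5-fold between the cytokines; log2 fold change -4.49, SE 0.41, edgeR adjusted p = 3.49e-05). Casp4, the noncanonical inflammasome caspase, was 8.60-fold, Ptgs2, the inducible cyclooxygenase, 6.59-fold and Acod1, which makes itaconate, 3.41-fold higher with IL-10. Ptgs2 with IL-10 was near untreated cells (19.4 ± 1.54 and 18.9 ± 5.06 CPM), and TGF-β lay below both (2.91 ± 0.891). With IL-10, untreated and with TGF-β, mean levels were 31.6, 8.84 and 3.69 CPM for Casp4 and 36.0, 18.8 and 10.5 for Acod1. Tnf was not called, at 3.77, 3.37 and 4.91 CPM with TGF-β and 3.45, 4.66 and 4.16 with IL-10 (log2 fold change -0.01, SE 0.19, edgeR adjusted p = 0.969). Il1b was 1.61-fold higher with IL-10 (log2 fold change -0.69, edgeR adjusted p = 0.0237). That call was lost with library size scaling, in limma-voom, and in edgeR without TGF-β library 2 (-0.62) or 3 (-0.72). Without IL-10 library 1 the log2 fold change was -0.42. The TGF-β side held Hif1a (log2 fold change 0.86), Ptges (0.94), Nlrp3 (0.64) and Osm (0.44), which was not called with 6 libraries or without IL-10 library 1 (0.42) or 2 (0.41) or TGF-β library 1 (0.36) or 2 (0.32). Tlr2, which senses bacterial lipoproteins, was 4.68-fold higher with TGF-β, at 181, 183 and 178 CPM against 40.9, 37.5 and 37.3 and 48.9, 47.1 and 53.5 untreated.

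Genes of macrophage surface recognition were divided. In the Fc receptor, scavenger and phagocytosis list 17 of 40 were higher with IL-10 and 15 with TGF-β (42.5% and 37.5%), or 15 and 16 with library size scaling. Over 2-fold, 11 were higher with IL-10 and 7 with TGF-β. The largest change towards TGF-β was that of Axl, at 2.02 ± 0.430 against 0.0311 ± 0.0317 CPM (log2 fold change 5.86). In the list of Ly6 proteins and paired receptors 13 of 23 were higher with IL-10 and 5 with TGF-β (56.5% and 21.7%). Pirb, an inhibitory immunoglobulin-like receptor, was 12.0-fold higher with IL-10, at 159, 169.6 and 184 CPM against 16.1, 13.0 and 13.7 with TGF-β and 79.0, 76.6 and 82.3 untreated. The mannose receptor Mrc1 was 3.44-fold, the C-type lectin Clec4n (dectin-2) 15.8-fold, Lilr4b 3.87-fold and Cd300ld 3.85-fold higher with IL-10. The 5 paired receptors on the TGF-β side were the sialic acid lectins Siglec1 (0.77) and Siglecf, Lair1 (0.83), Cd300a (0.27) and Cd300c2 (0.24), and 3 were called with 6 libraries or without IL-10 library 2, TGF-β library 1 or TGF-β library 2. The calls lost were those of Cd300a (0.27, 0.24 and 0.19 without these libraries) and Cd300c2 (0.25, 0.20 and 0.22). Without IL-10 library 1 these were 0.22 and 0.17 and were also lost, and Lair1 was not called without TGF-β library 3 (0.70). Siglecf was at 6.84 ± 1.38 against 0.137 ± 0.211 CPM (log2 fold change 5.62, or 5.03 and 8.49 leaving out IL-10 library 1 or 2). Of 17 genes of alternative macrophage activation 7 were higher with IL-10 and 3 with TGF-β (41.2% and 17.6%). The lectins Clec10a and Mgl2 were 3.32-fold and 2.67-fold higher with IL-10, and Mgl2 lay below untreated cells with both cytokines. Socs2, Trem2 (log2 fold change 0.51) and the transglutaminase Tgm2 (2.31, and 3.11 without IL-10 library 1) were higher with TGF-β. Il4ra was near its IL-10 level with TGF-β (144, 155 and 161 and 123, 131 and 124 CPM) and above untreated cells (38.0, 36.0 and 47.1), and its 1.22-fold difference between the cytokines (edgeR adjusted p = 0.0329) was not called with library size scaling, nor without IL-10 library 2 or 3 (log2 fold change -0.27 and -0.24) or TGF-β library 1 or 3 (-0.26 and -0.27).

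Targets of NRF2, the factor of the antioxidant response, were also mostly higher with IL-10, 23 of 30 members against 1 (76.7% and 3.33%; median -0.80). Their summed level was 60510 to 64060 CPM of library totals with IL-10, 27930 to 30260 with TGF-β and 50900 to 51950 untreated, without overlap. Much of it is Fth1, the ferritin heavy chain, at 37090, 37880 and 39060 CPM with IL-10, 13120, 13310 and 11360 with TGF-β and 26150, 24080 and 25790 untreated (3.02-fold; edgeR adjusted p = 1.97e-12). Prdx1, a peroxiredoxin, was 3.68-fold and Slc48a1, a haem transporter, 2.94-fold higher with IL-10. Against untreated cells 21 of the 30 were called lower and 1 higher with TGF-β, and 11 higher and 6 lower with IL-10. Osgin1 was the member higher with TGF-β (log2 fold change 0.68), and that count was 2 without IL-10 library 1 or TGF-β library 2 and 5 with library size scaling.

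Lipid genes leaned to TGF-β. Of 20 tested genes of LXR signalling and lipid export, 10 were higher with TGF-β and 5 with IL-10 (50.0% and 25.0%; median 0.45). Apoe, the main lipid carrier of the brain, was at 47370, 47430 and 40340 CPM with TGF-β, 14620, 16560 and 15430 with IL-10 and 15120, 15730 and 15140 untreated, so that IL-10 overlapped untreated cells (2.90-fold; log2 fold change 1.54, SE 0.08, edgeR adjusted p = 5.42e-12). Srebf1, a lipogenic transcription factor, was 3.01-fold and the desaturase Scd2 2.43-fold higher with TGF-β. Lipa (-0.44), Tspo (-0.55), Lpl (-0.87), Abca1 (-0.45) and Npc2 (-0.19) were those higher with IL-10, 3 of them with library size scaling. Npc2 was not called without IL-10 library 1 (-0.19) or 3 (-0.17) or TGF-β library 1 (-0.19) or 3 (-0.15), nor with 6 libraries. In the cholesterol and fatty acid synthesis list 14 of 33 were higher with TGF-β and 6 with IL-10 (42.4% and 18.2%), and the 14 became 9 without IL-10 library 2 or TGF-β library 3 and the 6 became 3 with library size scaling. Insig1 and Insig2, sterol sensors of the same family, went opposite ways, 2.44-fold higher and 2.41-fold lower with TGF-β. Fasn, fatty acid synthase, was 1.94-fold higher with TGF-β, where the TGF-β libraries (372, 394 and 444 CPM) overlapped untreated cells (399, 371 and 378) and IL-10 lay below (229.9, 211 and 184).

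Genes of disease-associated microglia were higher with IL-10 in 23 and with TGF-β in 8 of 35 tested (65.7% and 22.9%; median -0.52). Among those higher with TGF-β were Apoe (log2 fold change 1.54) and Axl (5.86), both described above. Lgals3, galectin-3, was at 1496, 1595 and 1360 CPM with TGF-β, 5533, 5780 and 6081 with IL-10 and 5197, 4934 and 5085 untreated (3.91-fold; edgeR adjusted p = 1.81e-12). Fabp5, a fatty acid binding protein, was 2.39-fold higher with IL-10, and there it was TGF-β that lay near untreated cells (941 ± 58.0 and 937 ± 53.1 CPM). Spp1, osteopontin, was above untreated cells (10960, 10570 and 10530 CPM) with both cytokines and 1.84-fold higher with IL-10 (42680, 50500 and 52900) than with TGF-β (25130, 24870 and 29250). In the lysosome list 22 of 58 were higher with IL-10 and 13 with TGF-β (37.9% and 22.4%), which turned to 15 and 21 with library size scaling, and the 13 became 8 without IL-10 library 1. The cathepsin Ctsb was 1.98-fold and the legumain Lgmn 1.76-fold higher with IL-10, and the membrane protein Scarb2 2.33-fold higher with TGF-β.

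**Figure D4:**
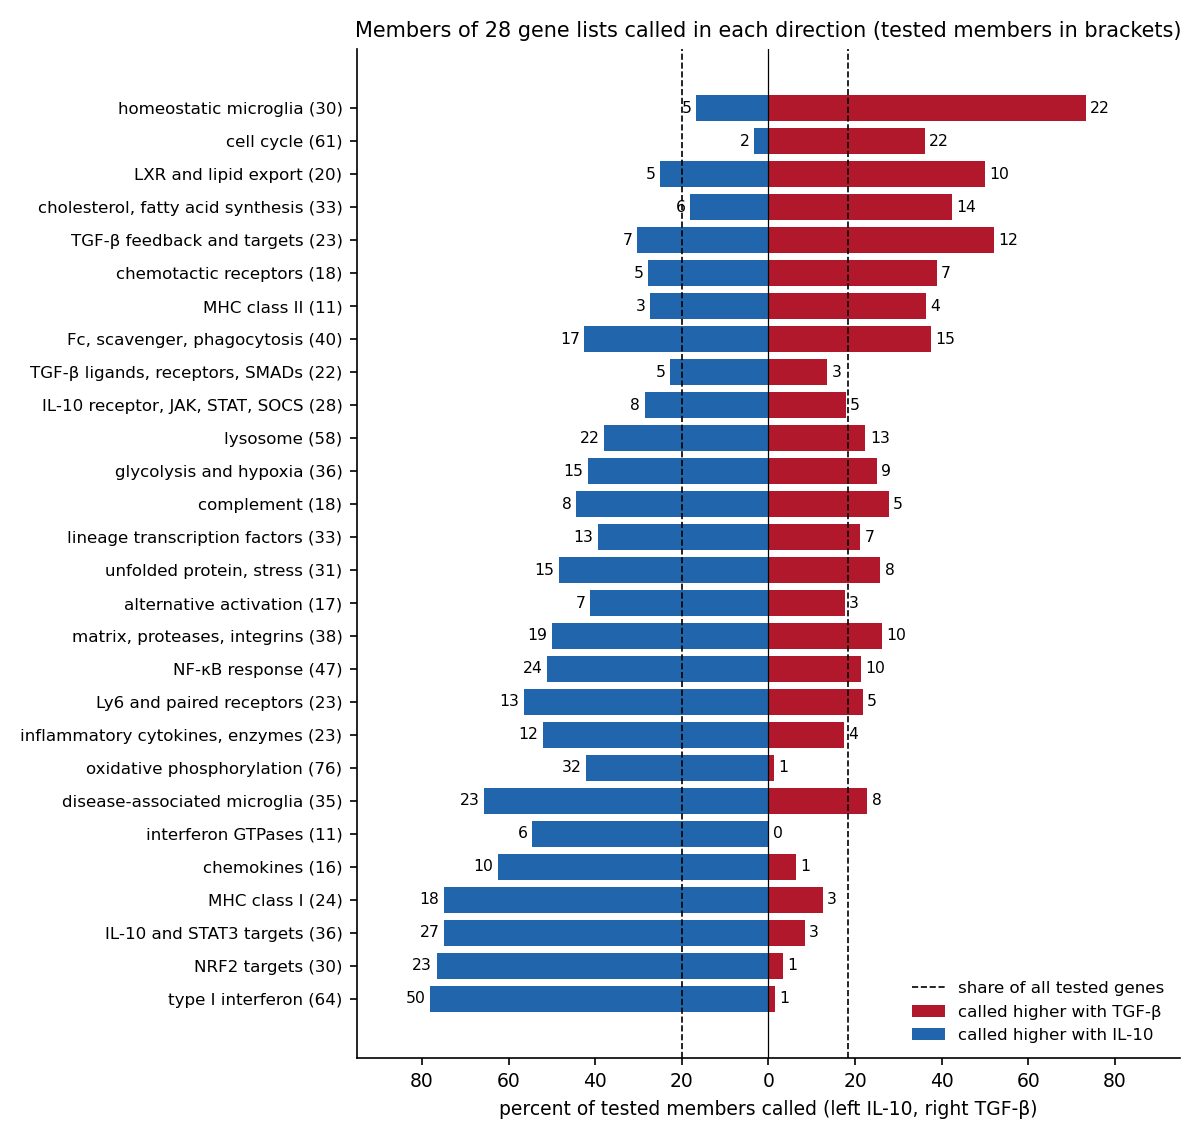
Percent of the tested members of 28 gene lists called higher with IL-10 (left, blue) or TGF-β (right, red), with the number of called members at each bar and the number tested in brackets. Dashed lines give the shares over all tested genes, 20.0% and 18.3%, and the type I interferon list reaches 78.1% on the IL-10 side while the homeostatic list reaches 73.3% on the TGF-β side.

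Matrix, protease and integrin genes gave 19 of 38 members higher with IL-10 and 10 with TGF-β (50.0% and 26.3%), the latter 6 among genes with at least 50 counts on average. With library size scaling the counts were 14 with IL-10 and 13 with TGF-β. The metalloproteinase Mmp12 was at 2.85, 3.22 and 3.66 CPM with TGF-β, 36.0, 31.8 and 39.1 with IL-10 and 98.3, 86.7 and 92.0 untreated, lower with both cytokines and lowest with TGF-β (11.0-fold between them; log2 fold change -3.45, SE 0.14, edgeR adjusted p = 5.48e-13). Adam8, a sheddase, was 7.99-fold higher with IL-10, and the integrin chain Itgal 5.32-fold higher with TGF-β. Of 33 lineage transcription factors 13 were higher with IL-10 and 7 with TGF-β (39.4% and 21.2%; median -0.34, or -0.25 with bounds). Cebpa, a factor of myeloid differentiation, was 4.54-fold and Mef2a, which is active in microglia, 2.33-fold higher with TGF-β, while Klf2 was 4.62-fold higher with IL-10. Cebpa was at 47.9, 48.0 and 33.1 CPM with TGF-β, 9.43, 9.35 and 9.61 with IL-10 and 12.2, 10.3 and 10.8 untreated. Myc, from the alternative activation list, was 6.05-fold higher with IL-10, at 19.4, 26.6 and 26.5 against 4.35, 4.06 and 3.58 CPM.

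Differences in glycolysis and oxidative phosphorylation were mostly under 2-fold, and their counts depended on the centre chosen. Glycolysis and hypoxia genes gave 15 of 36 higher with IL-10 and 9 with TGF-β (41.7% and 25.0%), or 13 and 13 with library size scaling, under which the median of -0.07 became 0.08. The glucose transporter Slc2a1 was 1.99-fold and the phosphofructokinase Pfkp 2.05-fold higher with IL-10, and hexokinase Hk2 1.86-fold higher with TGF-β. In oxidative phosphorylation 32 of 76 were higher with IL-10 and 1, Sdha (log2 fold change 0.27), with TGF-β (42.1% and 1.32%), yet the median was only -0.19 and no member passed 2-fold. The 32 became 12 with library size scaling, 20 with the 6 libraries alone, and 19, 20 and 21 on leaving out IL-10 library 3, TGF-β library 1 or TGF-β library 3. The 1 became 7 with library size scaling and 2 without IL-10 library 1. Uqcrq, a subunit of complex III, was 1.82-fold higher with IL-10 (edgeR adjusted p = 2.87e-07). Genes of the unfolded protein response and amino acid stress gave 15 of 31 higher with IL-10 and 8 with TGF-β (48.4% and 25.8%). Among them Psat1, which makes serine, was 2.24-fold, the sensor Ern1 2.85-fold and the cystine transporter Slc7a11 3.72-fold higher with IL-10.

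Cell cycle genes were the reverse, with 22 of 61 called higher with TGF-β and 2 with IL-10 (36.1% and 3.28%; median 0.24). E2f2 and Cdc25a, which promote entry into and passage through the cycle, were 1.50-fold and 1.56-fold higher with TGF-β, and Ccnd3 and Cdc25b 1.50-fold and 1.36-fold higher with IL-10. Chosen after their values were seen, the S-phase cyclin Ccne2 was 2.57-fold and the proliferation marker Mki67 1.87-fold higher with TGF-β. Without TGF-β library 3 the log2 fold change of Ccne2 went from 1.36 to 0.80 and that of Mki67 from 0.905 to 0.685. Mki67 was at 87.7, 82.1 and 127 CPM with TGF-β, 66.6, 50.5 and 41.3 with IL-10 and 52.1, 62.1 and 47.4 untreated. The summed level of the list was 3516, 3657 and 4724 CPM of library totals in the TGF-β libraries, 3478, 2993 and 2907 in the IL-10 libraries and 3360, 3932 and 3262 in untreated cells. TGF-β library 3 stood above the rest, and without it 11 members were called higher with TGF-β and 4 with IL-10. With library size scaling 32 and 2 were called, and in limma-voom 4 on the IL-10 side.

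**Figure D5:**
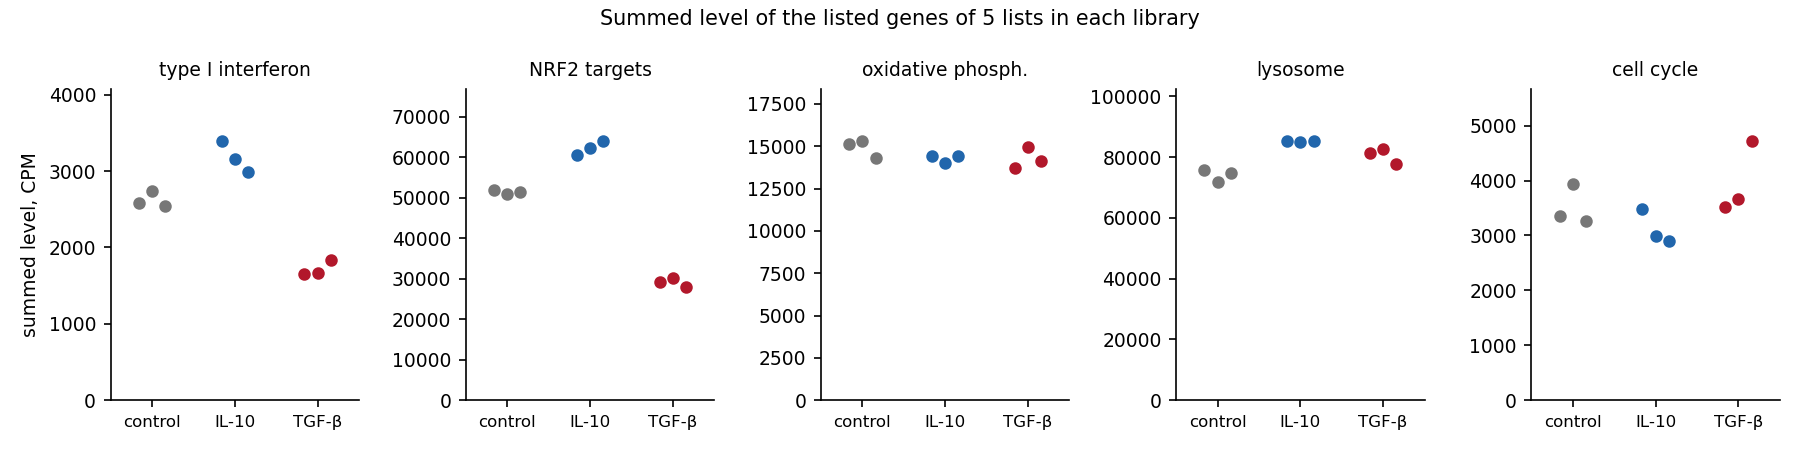
Summed level of the listed genes of 5 lists in each library of untreated (grey), IL-10 (blue) and TGF-β (red) cells, in CPM of library totals, each axis starting at 0. The 3 groups do not overlap in the interferon, NRF2 and lysosome panels, and in the cell cycle panel TGF-β library 3 stands at 4724 above all others.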

How the data were processed

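The deposited files hold whole-number read counts per gene that the authors did not normalise, 1 table per treatment and compartment. Per the labels' protocols, RNA was amplified with SMART-Seq v4 and made into Nextera XT libraries. DESeq2 is named in the submitters' processing notes. No aligner or genome build is given in the sources used here, and the 6 tables were joined by gene, and all 12 repeated untreated columns were identical between tables. Columns name a treatment, a compartment and a number, so they were mapped to groups. The 13290 genes listed each had at least 240 counts over the 24 libraries. Of these, 16 have numbers for names and 6 share a name with another entry, and they were tested but not named. Some other genes stayed in the fit and the list counts and are not reported here.

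edgeR 4.0.16 (R 4.3.3) was run on the 12 cell libraries with filterByExpr, TMM scaling and a robust quasi-likelihood fit, and the contrast was TGF-β cells minus IL-10 cells. Vesicle libraries were fitted alone, and all 24 together for the difference between compartments. In data simulated from these libraries with 12073 genes, 50 genes were changed at each fold size. The fit found 70% of those changed 1.5-fold, 88% at 2-fold and 100% at 4-fold and 8-fold. Of its 188 calls 9 were false (4.8%). Far fewer genes were changed there than the 4649 called between the cytokines, so 4.8% is no estimate of the false share of those calls. Recovery was not broken down by count level. Named genes were the 15 largest called changes in each direction without overlap and with a mean of 50 counts or more in the higher group, up to 4 of each list by adjusted p, and a fixed set of pathway genes, not all of which are described. Members and lists were chosen with earlier results of these data known, and list counts describe them without a test of the list. Alternatives were other scalings, DESeq2 1.42.0, limma 3.58.1 (voom with quality weights), other count filters, fits on 6 or 9 libraries and leaving out each library. Summaries used Python 3.11.15, pandas 2.3.3 and matplotlib 3.10.9.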

Additional observations from a re-analysis of the deposited data

Results flagged for a closer look

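The contrast of TGF-β with IL-10 differed between cells and vesicles for 9 genes (0.0678% of the 13281 tested in the 24 libraries by edgeR at an adjusted p under 0.05), and 1328 genes had an unadjusted p under 0.05. The values that follow are the cell log2 fold change minus the vesicle one. For 7 genes with a higher fitted level with TGF-β in vesicles, none of them called higher with TGF-β in cells, they were -9.082 for Cnot10, -12.05 for Slc39a13, -8.532 for Efl1, -13.21 for Kif26b, -9.775 for Grrp1, -12.46 for Icam1 and -12.61 for Itga5. Cnot10, a subunit of the CCR4-NOT deadenylase, was at 95.6, 59.8 and 75.8 CPM in TGF-β vesicles against 0.215, 0.239 and 0 in IL-10 vesicles, and at 33.9 ± 1.57 and 32.9 ± 3.18 CPM (SD, n = 3) in cells. For Zfp580 the value was 10.62, with no count in the TGF-β vesicles and 2.58, 2.15 and 23.1 CPM in the IL-10 vesicles. For Saa3 it was -7.225, since the vesicle levels overlapped (347, 304.2 and 2108 CPM with IL-10, 165, 957 and 64.4 with TGF-β) where the cell levels did not. In 6 of the 9 genes all 3 vesicle libraries of 1 treatment had no count.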

How the results depend on the processing

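Counts of called genes between TGF-β and IL-10 cells stayed within 1.5 times of those reported under the 14 alternatives, except that library size scaling gave 3499 genes higher with TGF-β. Leaving out each of the 6 libraries in turn gave 3853 to 4440 called genes, 1843 to 2124 higher with TGF-β, 1999 to 2316 higher with IL-10 and 1050 to 1215 past 2-fold. In vesicles edgeR called 0 genes (790 at an unadjusted p under 0.05), DESeq2 called 273 and limma-voom 17, and leaving out each library gave 0 to 1, the 1 without TGF-β vesicle library 3. The cause of that spread was not tested. The 9 genes that differed between cells and vesicles became 10 with RLE scaling and 8 among genes with at least 50 counts. Tnf, near no difference, took the opposite sign at 0.14 with library size scaling, 0.099 and 0.0099 without IL-10 replicates 2 and 3, and 0.051 and 0.091 without TGF-β replicates 1 and 2, and leaving out single libraries gave -0.19 to 0.099. No paired analysis was possible because the columns are tied to groups only and the labels give no number shared between samples of the groups. Cell libraries of 26136825 counts or more leave genes under 0.115 CPM undetermined, and vesicle libraries, with 3019338 to 17978753 counts, are shallower. In TGF-β vesicle libraries 1, 2 and 3, 50%, 19.6% and 27.1% of listed genes had no count. In IL-10 vesicle libraries 22.0%, 37.0% and 34.7% had none. LPS vesicle library 2, with only 3019338 counts, had 0.489% without a count. Why these shares differ was not tested.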

Other observations

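The same contrast in vesicles was described by direction only, as no gene passed the adjusted threshold of edgeR there. Genes were kept here when they averaged 50 counts or more in vesicles of TGF-β cells or of IL-10 cells. A gene could thus enter on 1 treatment alone, as Ly6a did with mean counts of 0 and 128.3. Of those over 2-fold higher with TGF-β in cells, 159 of 235 (67.66%) were on the TGF-β side in vesicles. Of those over 2-fold higher with IL-10 in cells, 82 of 375 (21.87%) were. Of all genes tested in cells and kept, 3995 of 8682 (46.01%) were. Without this filter the shares were, in that order, 62.75%, 28.2% and 46.87%. Skil was at 23.6, 93.1 and 74.0 CPM in TGF-β vesicles against 0.215, 2.15 and 0 in IL-10 vesicles, without overlap. Ly6a had no count in TGF-β vesicles and 27.1, 8.35 and 24.1 CPM in IL-10 vesicles. Apoe, higher with TGF-β in cells, was at 3414, 4290 and 2489 CPM in TGF-β vesicles and 1439, 7201 and 9870 in IL-10 vesicles, which overlapped. Wfdc17 was at 126, 246 and 239.6 CPM in IL-10 vesicles and 5.71, 114 and 15.4 in TGF-β vesicles. The 3 lowest vesicle p-values belonged to Cnot10, Slc36a2 and Slc39a13, and Slc36a2, an amino acid transporter, was at 98.3, 48.3 and 65.0 CPM with TGF-β and 0.86, 0 and 0 with IL-10.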
